A study of Arabidopsis thaliana with 18 samples.

Results

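The suppressor line *dcl1-24/hyl1-2* was compared with its parent *hyl1-2* at 27 °C, over every miRNA entry of a small RNA sequencing table. The comparison took 3 libraries of each genotype out of the 18 libraries of the series, chosen by the genotype and temperature in their labels, and no measured value was used to choose them. Levels are in RPMR, which are miRNA reads scaled to 1000000 reads of 45S rRNA. The test took the 139 entries that averaged 1 RPMR or more across the 18 libraries, and 22 entries were below that level. The other libraries of the series were *dcl1-24/hyl1-2* and *hyl1-2* at 21 °C and the wild type Col-0 at both temperatures, with 3 libraries each.

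All 6 compared libraries came from whole Arabidopsis seedlings in the Col-0 background, 4 days old. The seedlings had spent 2 days at 21 °C and then 2 days at 27 °C in continuous red light. Both genotypes carried the *hyl1-2* allele, and the labelled difference between them was the second mutation, *dcl1-24*, a dominant change of a proline to a serine in the RNase IIIa domain of DCL1. The line *dcl1-24/hyl1-2* was recovered by chemical mutagenesis of *hyl1-2*, and 1 such line was sequenced. Other mutations that this line may carry were not checked here. Only miRNAs were measured, so the mutations and the tissue of the libraries were not checked against their own transcripts.

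DCL1 is the Dicer-like RNase III that cuts most plant miRNAs out of hairpin precursors in the nucleus. HYL1 is a double-stranded RNA-binding partner of DCL1 that helps it cut efficiently and at the right position, and plants without HYL1 have low levels of many miRNAs. Each cut releases a duplex of a 5p and a 3p strand. The guide strand is loaded into an ARGONAUTE protein, mostly AGO1, which prefers a 5′ uridine, while the passenger strand is discarded. A few evolutionarily young hairpins with long, nearly perfect stems are cut by DCL4 in place of DCL1, and miR822 is one of them.

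The sequences below belong to the miRNAs on which the comparison turned. They were read from the RefSeq annotation of TAIR10.1, and the seed, bases 2 to 8 from the 5′ end, is in capitals. The first set holds the 12 entries with the largest increases in *dcl1-24/hyl1-2* among those that passed the test in libraries without overlap.
miR5650: uUGUUUUGgaucuuagauaca
miR398b-3p/398c-3p: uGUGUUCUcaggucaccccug
miR833b: uGUUUGUUgacaucggucuag
miR173-5p: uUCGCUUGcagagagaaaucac
miR837-3p: aAACGAACaaaaaacugaugg
miR447a.2-3p: uAUGGAAGaaauuguaguauu
miR852: aAGAUAAGcgccuuaguucug
miR781a/781b: uUAGAGUUuucuggauacuua
miR1888a: uAAGUUAAgauuugugaagaa
miR824-3p: cCUUCUCAucgauggucuaga
miR5996: uGACAUCCagauagaagcuuug
miR5639-5p: uAGUCCACuguggucuaaggc

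The second set holds the 4 entries that were lower in *dcl1-24/hyl1-2*, with miR840-3p, the other strand of the MIR840 hairpin, for comparison.
miR822-5p: uGCGGGAAgcauuugcacaug
miR822-3p: uGUGCAAAugcuuucuacagg
miR840-5p: aCACUGAAggaccuaaacuaac
miR840-3p: uUGUUUAGgucccuuaguuuc
miR845b: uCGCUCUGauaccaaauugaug

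The third set holds the most abundant miRNAs of the 6 libraries and the passenger strand of miR398b and miR398c.
miR5026: aCUCAUAAgaucgugacacgu
miR158a-3p: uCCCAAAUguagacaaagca
miR166a-3p/166b-3p/166c/166d/166e-3p/166f/166g: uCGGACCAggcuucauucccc
miR159b-3p: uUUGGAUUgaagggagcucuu
miR159a: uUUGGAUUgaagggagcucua
miR396b-5p: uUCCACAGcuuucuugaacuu
miR156a-5p/156b-5p/156c-5p/156d-5p/156e/156f-5p: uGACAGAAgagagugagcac
miR398b-5p/398c-5p: aGGGUUGAuaugagaacacac

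Names joined by a slash share 1 mature sequence from several loci and were counted as 1 entry. The loci behind such an entry cannot be told apart. miR781a and miR781b are annotated on opposite strands of neighbouring sites, at chr1:7423523-7423543 and chr1:7423585-7423605.

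In TAIR10.1 coordinates, miR5650 lies in the hairpin MIR5650 at chr2:19686959-19686979 and miR5026 in MIR5026 at chr4:7844612-7844632, both on the plus strand. The strands of miR822 lie in MIR822 at chr5:897287-897307 (5p) and chr5:897067-897087 (3p), on the minus strand. The strands of miR840 lie in MIR840 at chr2:771492-771513 (5p) and chr2:771385-771405 (3p), also on the minus strand.

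Most miRNAs had a higher fitted level in the *dcl1-24/hyl1-2* seedlings than in *hyl1-2* at 27 °C. The log2 fold change on log2(RPMR + 1) was above 0 for 128 of the 139 tested entries and below 0 for 11, with a median of 1.46. In limma, at an adjusted p under 0.05 over all 139 entries, 66 entries (47.5%) were higher, 4 entries (2.88%) were lower and 69 did not pass. In 72 entries (51.8%) every *dcl1-24/hyl1-2* library was above every *hyl1-2* library, and in 4 entries (2.88%) every one was below. Of the 66 higher entries, 59 also had libraries without overlap.

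The 3 *dcl1-24/hyl1-2* libraries differed in level among themselves. The summed RPMR of all entries was 28742, 52972 and 80581 in *dcl1-24/hyl1-2* replicates 1 to 3, against 18740, 10352 and 7850 in *hyl1-2* replicates 1 to 3. The groups did not overlap, but *dcl1-24/hyl1-2* replicate 1 lay nearest to *hyl1-2*, and *hyl1-2* replicate 1 nearest to *dcl1-24/hyl1-2*. The ratio of the geometric means was 4.32 (exact permutation test, two-sided, p = 0.1, the smallest p that 3 against 3 libraries allow). The mean log10(RPMR + 1) over all entries was 0.881, 1.09 and 1.27 in *dcl1-24/hyl1-2*, against 0.824, 0.674 and 0.615 in *hyl1-2*, a difference of 0.376 (exact permutation test, two-sided, p = 0.1). The count of higher entries rested on single libraries: it was 40 without *dcl1-24/hyl1-2* replicate 3 and 42 without *hyl1-2* replicate 3. Without *dcl1-24/hyl1-2* replicate 1 the count rose instead. Of the 66, 35 stayed higher and past the threshold whichever of the 6 libraries was left out.

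Each value is a ratio of miRNA reads to 45S rRNA reads. The smallest steps between values corresponded to 99148 to 147642 miRNA reads in the *dcl1-24/hyl1-2* libraries, against 23319 to 77936 in the *hyl1-2* libraries. The rRNA reads in the denominator came to 1832220 to 3449532, against 2252552 to 4158872. A count of 3 reads was worth 0.87 to 1.64 RPMR in *dcl1-24/hyl1-2* and 0.721 to 1.33 RPMR in *hyl1-2*, so levels near 1 RPMR were at the limit of detection. In whole seedlings, fewer cells that make a miRNA and less of it per cell cannot be told apart.

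How many entries stood out depended on how the libraries were scaled. When the libraries were scaled by the median of ratios, which takes out a shift common to most miRNAs, the median of the 139 entries was 0.32, and 18 entries (12.9%) were higher and 5 (3.6%) lower. All 18 were among the 66, and the 4 lower entries stayed lower with miR408-5p as the fifth. With scaling to the summed miRNA RPMR the median was -0.065, with 4 higher and 8 lower. The median-of-ratios value is therefore given beside the 12 largest increases and the 4 decreases.

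miR5650 had the largest increase. Its level was 30.1, 81.1 and 139 RPMR in *dcl1-24/hyl1-2*, against 7.45, 4.44 and 2.67 RPMR in *hyl1-2*, a log2 fold change of 3.68 ± 0.74 (SE, adjusted p = 8.48e-05). The lowest *dcl1-24/hyl1-2* library was above the highest *hyl1-2* library. The mean in Col-0 at 27 °C was 4.35 RPMR, within the range of the *hyl1-2* libraries and below every *dcl1-24/hyl1-2* library. On the median-of-ratios scale the log2 fold change was 2.26 (adjusted p = 0.000451).

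The guide strand miR398b-3p/398c-3p was second. It represses the Cu/Zn superoxide dismutases CSD1 and CSD2 and is known to accumulate when copper is scarce. Its level was 552, 481 and 1189 RPMR in *dcl1-24/hyl1-2*, against 76.9, 44.8 and 58.1 RPMR in *hyl1-2*, a log2 fold change of 3.52 ± 0.71 (SE, adjusted p = 8.48e-05). On the log2(RPMR + 1) scale, though not in RPMR, the gap between the groups was wider than the spread within either of them. The mean in Col-0 was 358 RPMR. On the median-of-ratios scale its log2 fold change was 1.95 (adjusted p = 0.00147). miR398a-3p, which has the same seed, had 5.51, 16 and 9.82 RPMR in *dcl1-24/hyl1-2*, against 1.44, 0.888 and 1.33 RPMR in *hyl1-2*, and was also higher, by 2.27 ± 0.66 on the log2 scale (SE, adjusted p = 0.0043).

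miR833b, of a family found in few plants, had 6.09, 14.7 and 28.9 RPMR in *dcl1-24/hyl1-2*, against 1.44, 0.444 and 0 RPMR in *hyl1-2*. It was higher by 3.29 ± 0.64 on the log2 scale (SE, adjusted p = 8.48e-05), and by 2.50 on the median-of-ratios scale (adjusted p = 0.00132). Its highest *hyl1-2* level, in replicate 1, corresponded to a few reads. miR833b, miR5650 and miR5640 were the 3 higher entries that passed under every alternative in which they were tested, the scalings included.

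miR173-5p is the 22-nt miRNA that cuts TAS1 and TAS2 transcripts and so triggers tasiRNA synthesis. Its level was 11.0, 30.3 and 45.8 RPMR in *dcl1-24/hyl1-2*, against 2.89, 3.11 and 1.0 RPMR in *hyl1-2*. The increase was 3.04 ± 0.75 on the log2 scale (SE, adjusted p = 0.001), and on the median-of-ratios scale it was 1.75 (adjusted p = 0.0734), which missed the threshold. The Col-0 libraries ranged from 108 to 474 RPMR, above every library of both mutants. miR390a-5p/390b-5p, the trigger of the TAS3 siRNAs that act on auxin response factors, had 41.2, 86.9 and 184 RPMR in *dcl1-24/hyl1-2*, against 61.3, 36.0 and 25.0 RPMR in *hyl1-2*. These groups overlapped and the difference missed the threshold (log2 fold change 1.17, 95% interval -0.30 to 2.65, adjusted p = 0.16).

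Of the remaining large increases, miR447a.2-3p had 22.9, 58.3 and 90.1 RPMR in *dcl1-24/hyl1-2*, against 7.45, 5.77 and 3.34 RPMR in *hyl1-2*. It was higher by 3.01 ± 0.74 on the log2 scale (SE, adjusted p = 0.001) and by 1.56 on the median-of-ratios scale (adjusted p = 0.0045). miR824-3p, the partner strand of the miRNA that represses the MADS-box gene AGL16 in the stomatal lineage, had 13.9, 21.8 and 35.5 RPMR in *dcl1-24/hyl1-2*, against 3.85, 1.78 and 2.00 RPMR in *hyl1-2*. Its increase was 2.75 ± 0.74 (SE, adjusted p = 0.00193), and 1.44 on the median-of-ratios scale, which did not pass (adjusted p = 0.0734). In Col-0 miR447a.2-3p averaged 78.9 RPMR and miR824-3p averaged 61.2 RPMR.

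The other 6 of the 12 entries belong to less conserved families and had low levels in *hyl1-2*. miR837-3p, miR852, miR781a/781b, miR1888a, miR5996 and miR5639-5p had increases of 2.59 to 3.02 on the log2 scale and adjusted p-values of 0.000794 to 0.00193. Their levels were 4.35 to 58.4 RPMR in *dcl1-24/hyl1-2*, against 0 to 6.49 RPMR in *hyl1-2*. miR837-3p, for example, had 16.8, 22.7 and 58.4 RPMR in *dcl1-24/hyl1-2*, against 5.05, 1.33 and 2.34 RPMR in *hyl1-2*. By median of ratios miR781a/781b (1.98, adjusted p = 0.0111), miR1888a (1.85, 0.0131) and miR5639-5p (1.58, 0.0411) passed, while miR837-3p (1.70, 0.0875), miR852 (1.90, 0.0561) and miR5996 (1.40, 0.101) did not. All 12 entries kept their call on the RPMR scale whichever of the 6 libraries was left out.

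**Figure D1:**
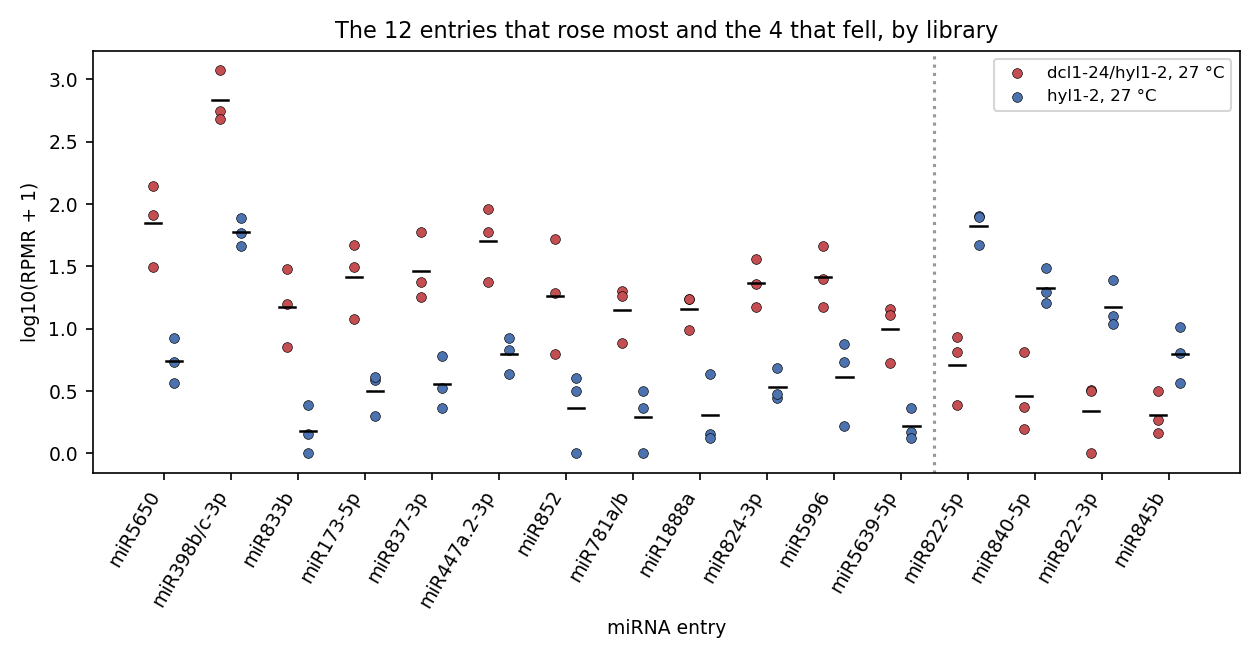
Level of the 12 entries with the largest increases (left of the dotted line) and of the 4 entries that fell (right of it), on a log10(RPMR + 1) axis, with a point for each library and a bar at the mean of 3 libraries. The *dcl1-24/hyl1-2* libraries lie wholly above the *hyl1-2* libraries for the 12 entries and wholly below them for miR822-5p, miR840-5p, miR822-3p and miR845b. Libraries without overlap were a condition for choosing these entries.

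Both strands of miR822 fell, and miR822-5p had the largest decrease of the 139 entries. miR822-5p had 1.45, 7.57 and 5.46 RPMR in *dcl1-24/hyl1-2*, against 78.6, 77.2 and 46.0 RPMR in *hyl1-2*, a log2 fold change of -3.69 ± 0.75 (SE, adjusted p = 8.48e-05). miR822-3p had 0, 2.23 and 2.18 RPMR in *dcl1-24/hyl1-2*, against 23.6, 11.5 and 10.0 RPMR in *hyl1-2*, a log2 fold change of -2.79 ± 0.70 (SE, adjusted p = 0.0011). Col-0 at 27 °C had 69.6 to 192 RPMR of miR822-5p and 15.7 to 37.7 RPMR of miR822-3p, so every *dcl1-24/hyl1-2* library was below every library of both other genotypes.

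miR840-5p had 0.58, 1.34 and 5.46 RPMR in *dcl1-24/hyl1-2*, against 29.8, 15.1 and 18.7 RPMR in *hyl1-2*, a log2 fold change of -2.89 ± 0.72 (SE, adjusted p = 0.001). The other strand of the same hairpin, miR840-3p, had 1.74, 0.891 and 5.46 RPMR in *dcl1-24/hyl1-2*, against 2.16, 0.888 and 2.00 RPMR in *hyl1-2*. The libraries of miR840-3p overlapped, and its log2 fold change of 0.30 had a 95% interval from -0.94 to 1.54.

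miR845b, known in pollen for acting on retrotransposon transcripts, had 0.87, 0.445 and 2.18 RPMR in *dcl1-24/hyl1-2*, against 9.38, 2.66 and 5.34 RPMR in *hyl1-2*. Its log2 fold change was -1.60 ± 0.65 (SE, adjusted p = 0.0345), and the call was the least stable of the 4. It was lost without *dcl1-24/hyl1-2* replicate 1 (adjusted p = 0.058) or 2 (0.131) and without *hyl1-2* replicate 1 (0.13) or 3 (0.0763). The 3 entries of miR822 and miR840-5p kept their calls in each of the 16 alternatives run, and on the median-of-ratios scale miR822-5p was lower by a log2 fold change of -5.16, miR840-5p by -4.28, miR822-3p by -4.13 and miR845b by -2.72.

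**Figure D2:**
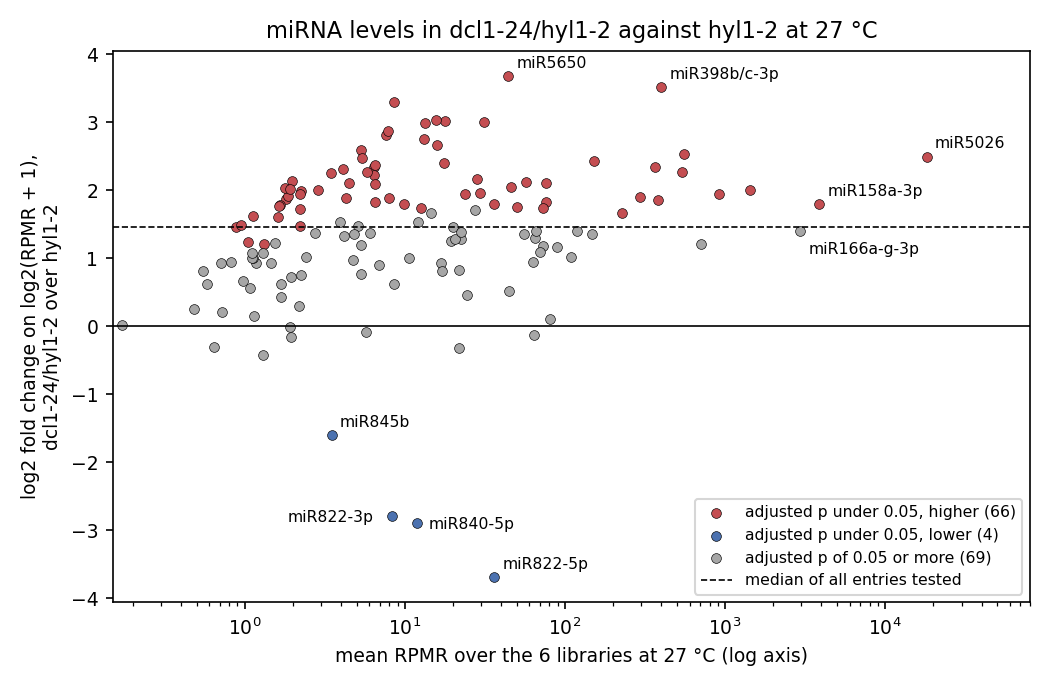
Log2 fold change of the 139 tested entries, *dcl1-24/hyl1-2* over *hyl1-2* at 27 °C on log2(RPMR + 1), against the mean RPMR of the 6 libraries on a log axis. Most points lie above 0 around the median of 1.46 (dashed line), with 66 higher entries in red, and the 4 lower entries in blue stand apart below.

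Of the 10 entries with the highest mean over the 6 libraries, 8 were higher and the entries of miR166 and miR396b-5p did not pass. miR5026 was the most abundant entry in all 6 libraries, with 17730, 30979 and 43895 RPMR in *dcl1-24/hyl1-2*, against 7886, 4370 and 3927 RPMR in *hyl1-2*. Its log2 fold change was 2.49 ± 0.62 (SE, adjusted p = 0.001), and its level was above the 420 to 1929 RPMR of Col-0 in both mutants. It held 61.7%, 58.5% and 54.5% of the summed RPMR in *dcl1-24/hyl1-2*, against 42.1%, 42.2% and 50.0% in *hyl1-2*. Without miR5026 the summed RPMR was 11013, 21993 and 36686 in *dcl1-24/hyl1-2*, against 10854, 5983 and 3923 in *hyl1-2*, so the groups stayed apart only by the small step between replicates 1, and the ratio of the geometric means was 3.27 (exact permutation test, two-sided, p = 0.1).

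miR158a-3p was second in *dcl1-24/hyl1-2*, with 2589, 5350 and 10551 RPMR, against 2239, 1285 and 1225 RPMR in *hyl1-2*. Its log2 fold change was 1.79 ± 0.58 (SE, adjusted p = 0.00791). The call was lost without *dcl1-24/hyl1-2* replicate 3 (adjusted p = 0.0902). On the median-of-ratios scale its log2 fold change was 0.21, below the median of all entries on that scale (0.32), and with scaling to the summed miRNA RPMR it was -0.32. The other entries of the family, miR158a-5p (1.29) and miR158b (1.25), did not pass.

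The entry for miR166a to miR166g, which represses the class III HD-ZIP transcription factors that pattern leaves and vessels, had 2159, 3778 and 6405 RPMR in *dcl1-24/hyl1-2*, against 3256, 1319 and 663 RPMR in *hyl1-2*. The groups overlapped, and the log2 fold change of 1.40 (95% interval 0.16 to 2.63) just missed the threshold (adjusted p = 0.0502). It passed without *dcl1-24/hyl1-2* replicate 1 (adjusted p = 0.0193) or *hyl1-2* replicate 1 (0.0113). Its near relative miR165a-3p/165b, with the same seed and the same targets, had 126, 197 and 431 RPMR in *dcl1-24/hyl1-2*, against 101, 32.9 and 19.4 RPMR in *hyl1-2*, and was higher by 2.43 ± 0.75 on the log2 scale (SE, adjusted p = 0.00569), a call that was lost without replicate 3 of either genotype (largest adjusted p = 0.0652).

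All 3 members of the miR159 seed group were higher. miR159 represses GAMYB-like transcription factors such as MYB33 and MYB65. miR159a had 409, 1122 and 1291 RPMR in *dcl1-24/hyl1-2*, against 242, 205 and 60.1 RPMR in *hyl1-2*, a log2 fold change of 2.54 ± 0.67 (SE, adjusted p = 0.00181). miR159b-3p had 1117, 2485 and 3156 RPMR in *dcl1-24/hyl1-2*, against 970, 564 and 245 RPMR in *hyl1-2*, a log2 fold change of 2.01 ± 0.64 (SE, adjusted p = 0.00719), and that call was lost without *hyl1-2* replicate 3 (adjusted p = 0.0833). miR159c had 11.0, 107 and 24.6 RPMR in *dcl1-24/hyl1-2*, against 7.69, 17.3 and 1.33 RPMR in *hyl1-2*, with overlap. Its log2 fold change of 2.16 ± 0.78 (SE, adjusted p = 0.0175) was outside the threshold without *dcl1-24/hyl1-2* replicate 2 (adjusted p = 0.205) or *hyl1-2* replicate 3 (0.211). With scaling to the summed miRNA RPMR miR159b-3p turned to -0.10. Both miR159a and miR159b-3p remained below their Col-0 means of 6588 RPMR for miR159a and 5403 RPMR for miR159b-3p.

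miR156 acts on the SPL transcription factors that time the change from juvenile to adult growth. The shared guide of miR156a to miR156f had 564, 1352 and 2590 RPMR in *dcl1-24/hyl1-2*, against 477, 337 and 215 RPMR in *hyl1-2*, a log2 fold change of 1.94 ± 0.67 (SE, adjusted p = 0.0133). The libraries did not overlap, but the call was lost without *dcl1-24/hyl1-2* replicate 3 (adjusted p = 0.128) or *hyl1-2* replicate 3 (0.0727). By median of ratios its log2 fold change was 0.36 and did not pass (adjusted p = 0.487), and with scaling to the summed miRNA RPMR it was -0.16. The other guides, miR156g (1.32) and miR157a-5p/157b-5p/157c-5p (1.38), did not pass the test. Of the 6 passenger entries of miR156 and miR157, 2 were higher, and their log2 fold changes ran from 0.51 for miR156b-3p to 1.96 for miR156f-3p. None of these 9 guide and passenger entries passed by median of ratios, with a median of 0.12 for the guides and -0.20 for the passengers. With scaling to the summed miRNA RPMR these medians were -0.27 and -0.72, and without miR5026 in that sum 0.027 and -0.33.

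The list of auxin-related miRNAs (miR160, miR167, miR390 and miR393) counts guide and passenger strands. In it 4 of 13 entries were higher and none was lower. The median log2 fold change was 1.17, against 47.5% higher and a median of 1.46 over all entries. By median of ratios 0 of the 13 were higher (median 0.17), and with scaling to the summed miRNA RPMR 0 were higher and the median was -0.26. Without miR5026 in that sum the median was 0.083. miR160a-5p/160b/160c-5p, which acts on the repressing auxin response factors ARF10, ARF16 and ARF17, had 40.6, 97.1 and 86.8 RPMR in *dcl1-24/hyl1-2*, against 15.4, 23.1 and 12 RPMR in *hyl1-2*. The increase of 2.04 ± 0.75 on the log2 scale (SE, adjusted p = 0.0184) was lost without *dcl1-24/hyl1-2* replicate 2 (adjusted p = 0.0837) or 3 (0.069) or *hyl1-2* replicate 3 (0.0763). miR167a-5p/167b, which acts on ARF6 and ARF8, had 168, 432 and 436 RPMR in *dcl1-24/hyl1-2*, against 140, 128 and 54.7 RPMR in *hyl1-2*. Its log2 fold change of 1.66 lay just inside the threshold and was outside it without replicate 2 or 3 of either genotype (adjusted p from 0.0708 to 0.218). miR393b-3p, from a hairpin of the family whose guide acts on the auxin receptors TIR1 and AFB2, had 69.6, 116 and 273 RPMR in *dcl1-24/hyl1-2*, against 96.7, 54.6 and 49.0 RPMR in *hyl1-2*, and its groups overlapped. The passenger miR390a-3p was the auxin-related entry with the largest increase, with 5.80, 9.80 and 8.19 RPMR in *dcl1-24/hyl1-2*, against 1.2, 1.33 and 0.667 RPMR in *hyl1-2* (2.10 ± 0.66 on the log2 scale, SE, adjusted p = 0.00602).

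The list of regulators of leaf and meristem development, with miR396, miR319, miR166, miR165, miR164 and miR159 as its main families, had 9 of 20 entries higher, with a median of 1.38, a share near the 47.5% of all entries. By median of ratios 0 of the 20 were higher (median 0.13), and with scaling to the summed miRNA RPMR 0 were higher and the median was -0.31. Without miR5026 in that sum the median was 0.020. miR319a/319b, which represses TCP transcription factors that limit leaf growth, had 301, 685 and 833 RPMR in *dcl1-24/hyl1-2*, against 207, 180 and 94.4 RPMR in *hyl1-2* (1.86 ± 0.68 on the log2 scale, SE, adjusted p = 0.0184). That call was lost without *dcl1-24/hyl1-2* replicate 2 (adjusted p = 0.0779) or 3 (0.0902) or *hyl1-2* replicate 3 (0.105). The guides of miR396, which act on the growth-regulating factors and share a seed, differed in their calls. miR396a-5p had 249, 784 and 819 RPMR in *dcl1-24/hyl1-2*, against 82.5, 157 and 91.4 RPMR in *hyl1-2*, and was higher (2.35 ± 0.73, SE, adjusted p = 0.00587), while miR396b-5p had 502, 1134 and 1270 RPMR in *dcl1-24/hyl1-2*, against 752, 409 and 190 RPMR in *hyl1-2*, and did not pass (1.21 ± 0.70, SE, adjusted p = 0.126). The difference between these entries was not tested.

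The list of miRNA families that act on the silencing machinery itself counts guide and passenger strands. It had 2 of 7 entries higher, both of them guides, with a median of 1.17, against 47.5% and 1.46 over all entries. Among conserved families 7 of 33 passenger strands and 17 of 34 guide strands were higher. By median of ratios 0 of the 7 were higher (median -0.010), and with scaling to the summed miRNA RPMR 0 were higher and the median was -0.21. Without miR5026 in that sum the median was -0.13, so the direction depended on the scaling. miR162a-3p/162b-3p, which cleaves the DCL1 transcript, had 56.2, 114 and 201 RPMR in *dcl1-24/hyl1-2*, against 51.5, 12 and 23.4 RPMR in *hyl1-2*, a log2 fold change of 2.11 ± 0.75 (SE, adjusted p = 0.0155). The call was lost without *dcl1-24/hyl1-2* replicate 3 (adjusted p = 0.111) or *hyl1-2* replicate 2 (0.117), and all 6 libraries were below the 480 to 1197 RPMR of Col-0. miR403-3p, which acts on AGO2, had 178, 482 and 773 RPMR in *dcl1-24/hyl1-2*, against 147, 98.6 and 87.4 RPMR in *hyl1-2* (1.89 ± 0.71, SE, adjusted p = 0.0206), and was past the threshold only with replicates 2 and 3 of both genotypes in the fit (adjusted p from 0.0634 to 0.154 without 1 of them). miR168a-5p/168b-5p, which acts on AGO1, had 28.7, 104 and 169 RPMR in *dcl1-24/hyl1-2*, against 61.1, 34.2 and 24.0 RPMR in *hyl1-2*, with overlapping groups. miR838, whose hairpin sits in an intron of the DCL1 gene and which was singled out after its values were seen, had 1.16, 2.23 and 2.18 RPMR in *dcl1-24/hyl1-2*, against 0.24, 0.888 and 0 RPMR in *hyl1-2*. Its libraries did not overlap, but its log2 fold change of 1.08 missed the threshold (adjusted p = 0.0748).

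The nutrient-responsive lists were small. Both entries of miR395, which acts on ATP sulfurylases and a sulfate transporter, were higher, miR395a/395d/395e with 2.32, 3.56 and 4.37 RPMR in *dcl1-24/hyl1-2*, against 0, 0 and 0.667 RPMR in *hyl1-2*, and miR395b/395c/395f with 5.51, 3.56 and 1.64 RPMR, against 0, 0.444 and 0 RPMR. Their log2 fold changes were 1.87 ± 0.57 (SE, adjusted p = 0.00544) and 1.92 ± 0.62 (SE, adjusted p = 0.00764). The *hyl1-2* levels of both were within a few reads of 0. By median of ratios 1 of the 2 entries was higher, and under either scaling to summed RPMR 0 were. None of the 3 phosphate-responsive entries passed, with miR399b/399c-3p, which acts on PHO2, at 1.53 (adjusted p = 0.068). Of the 6 copper-responsive entries only miR398b-3p/398c-3p and miR398a-3p were higher, and the median of 1.01 was below that of all entries.

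For the remaining lists, both of the 2 entries of miR161 that pair with pentatricopeptide repeat transcripts were higher. miR161.1 had 512, 623 and 1541 RPMR in *dcl1-24/hyl1-2*, against 303, 118 and 122 RPMR in *hyl1-2* (2.26 ± 0.68, SE, adjusted p = 0.00513), a call lost without *dcl1-24/hyl1-2* replicate 3 (adjusted p = 0.0531). miR161.2 was higher by 2.35 ± 0.71 (SE, adjusted p = 0.00513), a call lost without *hyl1-2* replicate 3 (adjusted p = 0.0695). miR400, the third of that list, did not pass (0.66). Of the 4 tested entries of the miR170 and miR171 list, which acts on scarecrow-like regulators, 2 were higher, led by miR171b-3p/171c-3p with 4.93, 7.57 and 6.55 RPMR in *dcl1-24/hyl1-2*, against 0.24, 0.444 and 1.0 RPMR in *hyl1-2* (2.25 ± 0.66, SE, adjusted p = 0.00458). The second, the passenger entry miR171a-5p/170-5p, had overlapping libraries and was lost without replicate 2 or 3 of either genotype (adjusted p from 0.105 to 0.2). The guides of miR169 act on NF-YA subunits. Neither of the 2 tested miR169 entries passed, the guide miR169a-5p and the passenger miR169f-3p. No entry of these 3 lists was called by median of ratios or under either scaling to summed RPMR.

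**Figure D3:**
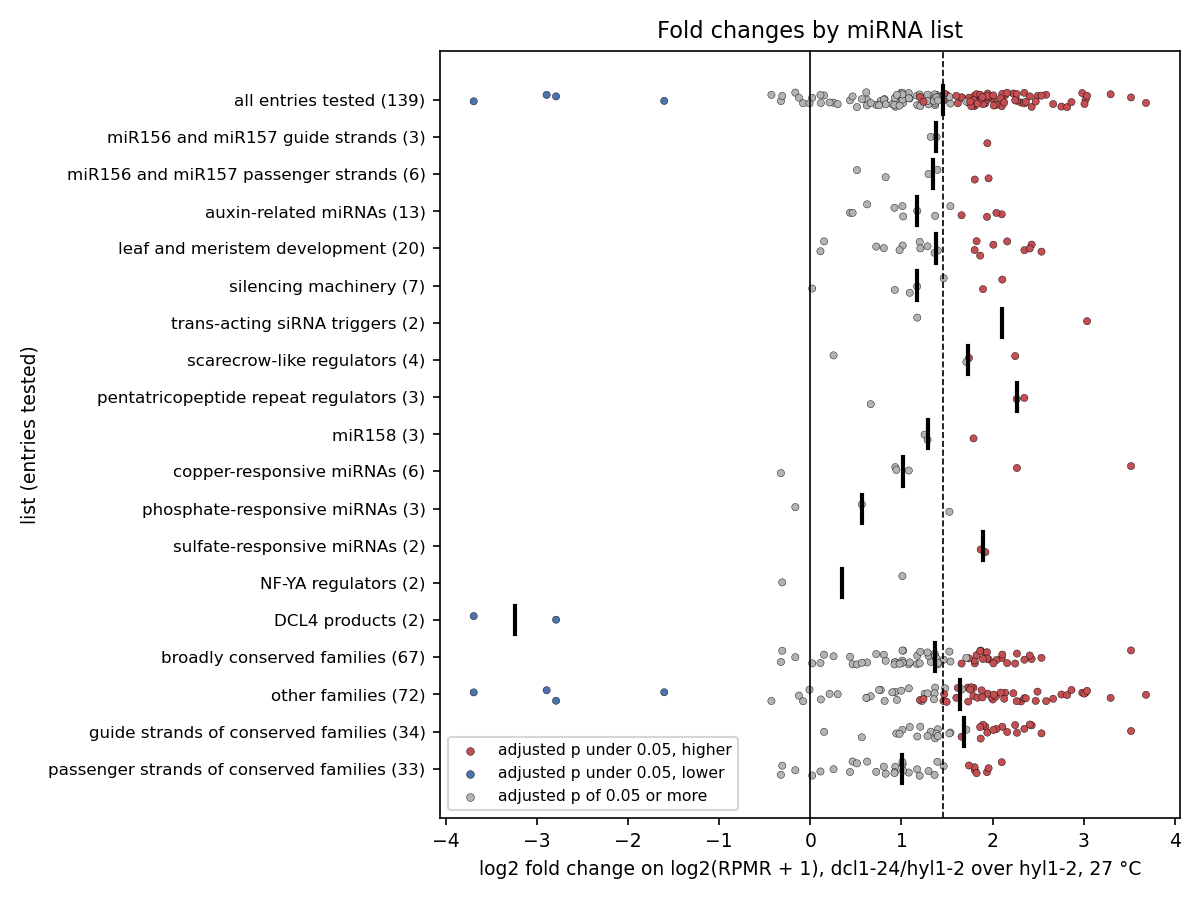
Log2 fold change at 27 °C, *dcl1-24/hyl1-2* over *hyl1-2*, of each tested entry by list, with a thick bar at the list's median and the dashed line at the median of all 139 entries (1.46). The entries of miR822 (DCL4 products) lie near -3, and passenger strands of conserved families (median 1.01) lie lower than guide strands (median 1.69).

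Broadly conserved and less conserved families both moved up. Of 67 tested entries of conserved families, 24 were higher and none lower, with a median of 1.36, and of 72 entries of other families, 42 were higher and 4 lower, with a median of 1.64. On the median-of-ratios scale 2 conserved entries and 16 of the others were higher. With scaling to the summed miRNA RPMR the median was -0.33 for conserved families and 0.24 for the others. Without miR5026 in that sum the medians were -5.7e-05 and 0.57. The direction for conserved families thus depended on the scaling and on whether miR5026 was counted in it. Within the conserved families 17 of 34 guide strands and 7 of 33 passenger strands were higher, with medians of 1.69 and 1.01. The median-of-ratios scaling gave medians of 0.30 for guide strands and -0.15 for passenger strands.

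Strand ratios compare 2 entries of opposite arms within a library, so the rRNA scaling does not enter except through the pseudocount. There were 43 pairs of 5p and 3p entries from a shared hairpin with both strands tested, and some guide entries with several loci stood in more than 1 pair. Where an entry pools more loci than its partner, the ratio is not that of a single hairpin. Such a ratio cannot tell a change between strands from a change among the loci. In 13 of them (30.2%) the log2 ratios of *dcl1-24/hyl1-2* and *hyl1-2* did not overlap. In 31 pairs a guide and a passenger strand were assigned from the known guide arm of the family. The guide gained more than the passenger in 24 of these and less in 7, with a median difference of 0.52 on the log2 scale. The passenger was the lower strand in most of these pairs, and adding 1 RPMR understates the gain of a low strand. Where both strands rise, the pseudocount therefore tilts the ratio towards the guide. The size of that tilt was not tested. The ratio of guide to passenger was above every *hyl1-2* library in 8 pairs, and below every one in 1 pair, miR822.

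The miR398b and miR398c duplex had the largest shift among guide and passenger pairs. The passenger miR398b-5p/398c-5p had 12.8, 22.7 and 31.1 RPMR in *dcl1-24/hyl1-2*, against 17.3, 10.2 and 6.34 RPMR in *hyl1-2*, with overlap, while the guide rose as given above. The log2 ratio of 5p to 3p was -5.33, -4.35 and -5.21 in *dcl1-24/hyl1-2*, against -2.09, -2.03 and -3.01 in *hyl1-2*. The Col-0 mean was -3.12, so the ratio in *dcl1-24/hyl1-2* was more one-sided than in both *hyl1-2* and Col-0. The strands of miR398a were too low in *hyl1-2* for such a comparison, with 0.24, 0 and 1.0 RPMR of miR398a-5p there.

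In MIR840 the 5p strand lost ground. Its log2 ratio of 5p to 3p was -0.79, 0.31 and 0.00 in *dcl1-24/hyl1-2*, against 3.28, 3.09 and 2.71 in *hyl1-2*, and averaged 1.32 in Col-0. The 5p strand was thus in excess in *hyl1-2*. In *dcl1-24/hyl1-2* both strands were equal in replicate 3. They were at a few reads in the other libraries of that genotype, where the added 1 RPMR holds the ratio near 0. For miR171b, whose 3p entry is shared with miR171c, the log2 ratio was -2.20, -2.57 and -1.85 in *dcl1-24/hyl1-2*, against 0.47, -0.53 and -0.59 in *hyl1-2*. Its Col-0 mean was -1.47. Both strands of miR171b were at 0 to 1.0 RPMR in the *hyl1-2* libraries, within a few reads of 0, so the added 1 RPMR holds those ratios near 0. For miR408, which acts on plantacyanin and laccase transcripts, the log2 ratio was -2.28, -1.99 and -1.95 in *dcl1-24/hyl1-2*, against -1.03, -0.55 and -0.84 in *hyl1-2*. The Col-0 mean for miR408 was -2.38, and neither strand passed the test of its own level. For miR162 the log2 ratio was -5.84, -6.84 and -7.03 in *dcl1-24/hyl1-2*, against -5.15, -3.70 and -4.61 in *hyl1-2*, with a Col-0 mean of -7.22. The 5p strand of miR162 had 0 to 0.546 RPMR in all 6 libraries and set no more than a limit. With 3 against 3 libraries an exact permutation test of a single ratio cannot give a p below 0.1.

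**Figure D4:**
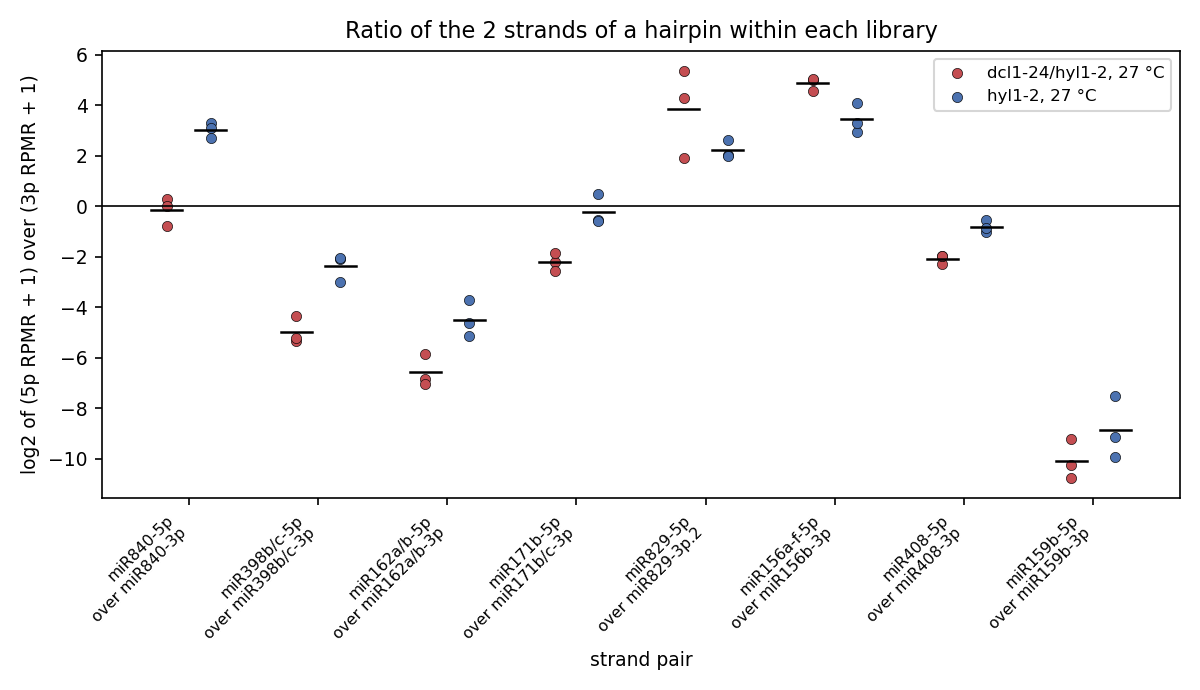
Log2 ratio of the 5p to the 3p strand, (RPMR + 1) over (RPMR + 1), for the 8 strand pairs with the largest difference between genotypes, with a point for each library and a bar at the mean of 3. The genotypes do not overlap for MIR840, miR398b and miR398c, miR162, miR171b, miR156b and miR408, and they overlap for miR829 and miR159b.

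Both strands were higher in 10 of the 43 pairs and lower in 1 (miR822), 18 pairs had 1 called strand and 14 had none. miR156c-3p (1.80, adjusted p = 0.0397) and miR156f-3p (1.96, adjusted p = 0.0262) were higher, as was the shared miR156 guide. miR156c-3p was outside the threshold without replicate 2 or 3 of either genotype (adjusted p from 0.0738 to 0.184), and miR156f-3p without *dcl1-24/hyl1-2* replicate 3 (0.329) or *hyl1-2* replicate 2 (0.0656) or 3 (0.163). The passenger miR156b-3p, with 16.5, 39.6 and 108 RPMR in *dcl1-24/hyl1-2*, against 60.4, 33.3 and 11.7 RPMR in *hyl1-2*, did not pass. The log2 ratio of the miR156 guide to miR156b-3p was above every *hyl1-2* library, at 5.01, 5.06 and 4.58, against 2.96, 3.30 and 4.09. Its Col-0 mean was 6.59. That guide entry pools several loci, so the ratio is not that of the miR156b hairpin alone. For the passenger miR396b-3p no difference was detectable, with 47.0, 63.2 and 151 RPMR in *dcl1-24/hyl1-2*, against 93.3, 89.7 and 42.4 RPMR in *hyl1-2* (log2 fold change 0.11, 95% interval -1.48 to 1.71).

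The features of the mature sequences were set beside the calls as a description, without a test. Of 80 tested entries that begin with U, 47 were higher (58.8%), and the share was 33.3% of 27 that begin with A, 27.8% of 18 that begin with C and 35.7% of 14 that begin with G. Guide strands mostly begin with U, so first base and strand role were not separate. Of the 110 entries of 21 nt, 57 were higher, and of the 13 entries of 22 nt, 5 were higher and 2, miR840-5p and miR845b, were lower. The 5p and 3p strands had medians of 1.47 and 1.38. The number of bases between the strands of a hairpin, known for 98 tested entries, had a Spearman's rho of -0.03 with the fold change (across entries, which are not independent replicates), with medians of 1.37 for up to 40 bases and 1.29 for over 100 bases.

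Adding 1 RPMR before the logarithm understates the change of low entries. By mean level over the 6 libraries, the median log2 fold change was 1.08 for 56 entries under 5 RPMR, 1.83 for 35 entries of 5 to 20 RPMR, 1.38 for 31 entries of 20 to 100 RPMR and 1.89 for 17 entries over 100 RPMR, with no steady order. The same groups had medians of 0.38, 0.66, -0.15 and 0.32 by median of ratios. Of the 15 seeds shared by 2 or more tested entries, 4 had all of their entries higher, those of the guides of miR159, miR319, miR395 and miR398.

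In 5 tested entries all 3 *hyl1-2* libraries were at 0. Against a level of 3 reads per library, miR860 was at least 3.88-fold higher in *dcl1-24/hyl1-2*, miR1886.2 at least 3.51-fold, miR862-3p at least 2.21-fold, miR5640 at least 1.86-fold and miR5663-5p at least 1.74-fold. The median log2 fold change of the 139 entries with these 5 at their bounds was 1.39.

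The same comparison at 21 °C rests on other libraries. There 111 entries (79.9%) were higher in *dcl1-24/hyl1-2* and 3 (2.16%) were lower, with a median log2 fold change of 2.09, against 66 and 4 and a median of 1.46 at 27 °C. The sign was the same at both temperatures for 132 of the 139 entries, and 63 of the 66 higher and 3 of the 4 lower at 27 °C were called in the same direction at 21 °C. Across the 139 entries the fold changes at the 2 temperatures had a Pearson's r of 0.82 and a Spearman's rho of 0.74 (a description, since all entries of a library share its rRNA normalisation and the prior count).

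The test of the difference between temperatures called no entry (limma, smallest adjusted p = 0.732), and 4 entries had an unadjusted p under 0.05. On the RPMR scale the change at 27 °C minus that at 21 °C was below 0 for 114 entries, with a median of -0.73. A shift shared by all entries of a library enters that median. The median-of-ratios factors of *hyl1-2* were 0.157 to 0.333 at 21 °C and 0.358 to 0.783 at 27 °C. Those of *dcl1-24/hyl1-2* were 1.02 to 2.37 at 21 °C and 0.811 to 2.69 at 27 °C. The *hyl1-2* libraries at 21 °C also held few miRNA reads, 11040 to 13765. The smallest unadjusted p was that of miR169f-3p (0.0199), with 0.58, 0.891 and 0 RPMR in *dcl1-24/hyl1-2*, against 0.962, 0.444 and 1.0 RPMR in *hyl1-2* at 27 °C, and 6.13 to 26.9 RPMR against 1.01 to 5.56 RPMR at 21 °C. miR845a, another miRNA of the miR845 family, had 51.9, 33.4 and 95 RPMR in *dcl1-24/hyl1-2*, against 117, 36.0 and 51.0 RPMR in *hyl1-2* at 27 °C, and 34.4 to 140 RPMR against 17.7 to 19.5 RPMR at 21 °C (unadjusted p = 0.0403). The fall in miR822-5p was seen at both temperatures, with log2 fold changes of -3.69 at 27 °C and -2.42 at 21 °C (adjusted p = 0.00287), and miR845b was not called at 21 °C (-0.72, adjusted p = 0.284).

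**Figure D5:**
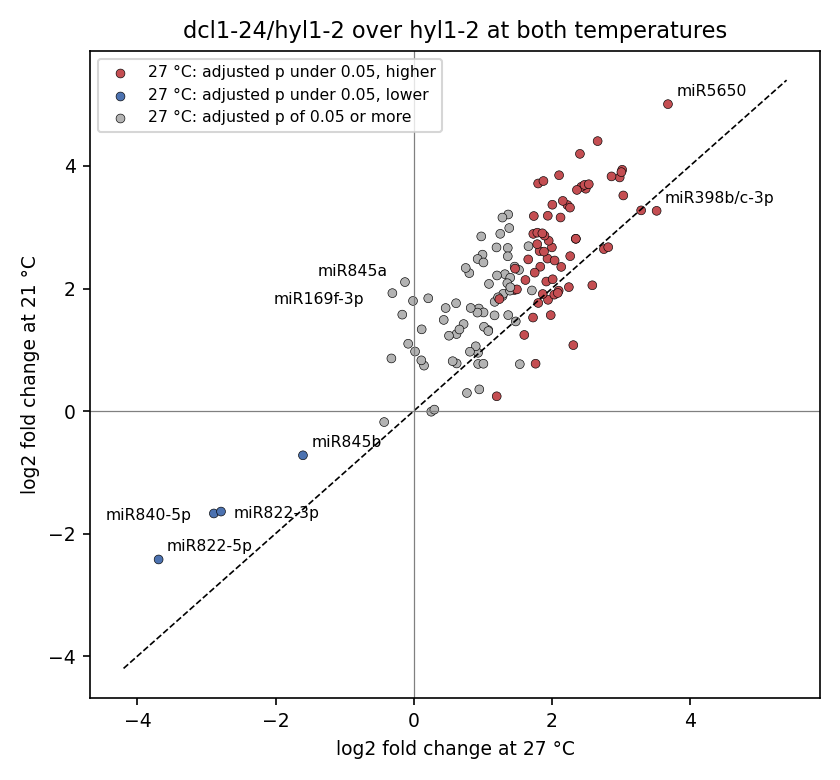
Log2 fold change, *dcl1-24/hyl1-2* over *hyl1-2* on log2(RPMR + 1), at 27 °C (x axis) and at 21 °C (y axis) for the 139 tested entries, coloured by the call at 27 °C, with equal changes on the dashed line. Most points lie above that line, with medians of 1.46 at 27 °C and 2.09 at 21 °C, and miR822-5p, miR822-3p, miR840-5p and miR845b lie below 0 at both temperatures.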

How the data were processed

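Small RNA of 15 to 40 nt was taken from 10 µg of total RNA of whole seedlings and sequenced. Per the study's methods, the authors trimmed reads with cutadapt 3.0, aligned them to the Araport11 genome with ShortStack without mismatches, and counted miRNAs, with reads of several loci placed by the aligner. In the deposited table, miRNAs of identical mature sequence share 1 entry. The deposited values are RPM values with 45S rRNA as the base (reads for every 1000000 rRNA reads, called RPMR), 1 column per library, and the authors tested miRNAs with DESeq2 1.35.0 outside this table. A change in rRNA fragments in a library moves all of its values together.

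Entries averaging 1 RPMR or more across 18 libraries were kept, and their log2(RPMR + 1) was fitted in limma 3.58.1 (R 4.3.3) with 1 mean for each of 6 groups, an intensity trend and Benjamini-Hochberg adjustment over 139 entries, two-sided. Intervals are at 95%. Single values were compared by exact permutation over 3 and 3 libraries with numpy 2.4.6, and Spearman's rho was taken with scipy 1.17.1. Libraries were grouped by genotype and temperature in the labels, which number 3 libraries a group. The labels do not say whether these came from separate cultures, so p-values measure a spread between libraries. In limma that spread came from all 6 groups (12 residual degrees of freedom). It was drawn strongly towards a trend over all entries (prior of 106.7 degrees of freedom). Entries of a library share its rRNA scaling and are not independent, which that prior does not take into account. Reads behind each value were inferred from the smallest step of a library, and limits of 3 reads cover counting error only. The columns that went unused number 0, and all 203 miRNA names matched the RefSeq annotation, from which sequences were read.

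Named were up to 12 entries per direction with the largest change among those past the threshold without overlap, the 10 most abundant, all of miR156, miR157, miR160, miR167, miR390 and miR393, the most abundant of each list, 8 strand pairs and the 5 of smallest p between temperatures. The entries and lists were chosen with earlier results of these data known. Alternatives changed the pseudocount, the filter, the scaling, the model and the libraries.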

Additional observations from a re-analysis of the deposited data

How the results depend on the processing

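Scaling changed most. The 66 higher and 4 lower entries became 4 and 8 with scaling to summed miRNA RPMR (median log2 fold change -0.065), 18 and 7 without miR5026 in that sum (median 0.20), and 18 and 5 by median of ratios (median 0.32). The difference in mean log10(RPMR + 1) became -0.037, 0.0521 and 0.0687 under these 3 scalings. With a minimum mean of 5 RPMR, 43 entries were higher, of fewer tested. Leaving out 1 library gave 40 to 95 higher and 3 or 4 lower entries, with a median of 1.04 to 1.85. It moved the difference in mean log10(RPMR + 1) from 0.279 to 0.476, the summed ratio from 3.39 to 5.68 and that without miR5026 from 2.46 to 4.48.

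With scaling to summed miRNA RPMR these called increases turned below 0: miR158a-3p (-0.32), miR159b-3p (-0.10), the miR156a to miR156f guide (-0.16), miR319a/319b (-0.24), miR156c-3p (-0.23), miR167a-5p/167b (-0.44, and -0.038 without miR5026 in the sum), miR160a-5p/160b/160c-5p (-0.0049), miR403-3p (-0.21), miR171a-5p/170-5p (-0.33), miR396a-3p (-0.25) and miR829-5p (-0.13). No entry differed between temperatures under any setting run. With the replicate number as a block 67 were higher and 4 lower and the summed ratio was 4.32 (exact sign-flip test, p = 0.25, the smallest 3 pairs allow). Deviations of libraries with the same number correlated at -0.10, 0.53 and -0.01, against -0.29 to 0.32 for different numbers. So few values cannot decide whether the numbers pair the libraries. Array weights gave 95 higher, and other fits 54 to 72. The cause of these shifts was not tested. Count models were not run, since the table holds rRNA-scaled values. Levels near 1 RPMR are limited by a few reads.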

Other observations

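The 22 entries below the level needed for the test leaned the same way. Of these, 16 had a higher mean in *dcl1-24/hyl1-2* than in *hyl1-2* at 27 °C and 4 a lower one, and in 7 every *dcl1-24/hyl1-2* library was above every *hyl1-2* library. miR833a-3p, a strand of the second miR833 hairpin, had 1.45, 1.34 and 1.64 RPMR in *dcl1-24/hyl1-2*, while all 3 *hyl1-2* libraries were at 0, a level at least 1.45-fold higher against 3 reads per library. miR841a-5p had 1.45, 1.34 and 2.73 RPMR in *dcl1-24/hyl1-2*, against 0.24, 0 and 0 RPMR in *hyl1-2*. These levels rest on few reads and were not tested.

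The 6 libraries also differed in how many entries they held above 0, with 153, 152 and 154 in *dcl1-24/hyl1-2*, against 138, 120 and 121 in *hyl1-2* (exact permutation test, two-sided, p = 0.1). The libraries with fewer entries had fewer miRNA reads, and no thinning to equal depth was run.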
